A study of Drosophila melanogaster with 4 samples.

Results

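The clusters described here are stretches of significant H3K9me3 enrichment on chromosome arm 2L of Drosophila melanogaster, between the telomere-side end of the arm and its centromere-proximal end. They were chosen by position alone: a cluster was kept where its midpoint lay from 200001 to 21011544 on 2L of FlyBase release 5. The piRNA locus at 38C, a stretch of 190 kb between 20.09 and 20.28 Mb, was left out. That left 192 of 3258 clusters in the list of replicate 1, 208 of 3287 in the list of replicate 2 and 397 of 4060 in the list deposited for the replicate set (the combined list).

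Both replicates are immunoprecipitated (ChIP) libraries from nuclei of wild-type Oregon-R larvae in the third instar, made with what the labels call a new lot of an antibody against H3K9me3. An input library of the same number goes with each, and the input libraries have no list of their own analysed here. All samples share genotype, strain and stage, so no treated group was set against another. The labels number the replicates without saying whether these came from separate animals, so the standard deviations may measure technical spread. Larvae are a mixture of tissues, and a cluster can reflect a weak mark in many cells or a strong mark in few, which cannot be told apart.

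H3K9me3 is written by the methyltransferases Su(var)3-9 and Eggless, the fly SETDB1, and is bound by the chromodomain of HP1a, the core protein of fly heterochromatin. It covers the repeats around the centromeres and most of the small chromosome 4. In the gene-rich part of an arm the mark is known from short islands, in particular at transposon copies, from which it can spread into flanking sequence. Gene and transposon positions of release 5 were not used here, so the islands are named by their coordinates, and the name euchromatic rests on position alone. No cluster sequence is printed, because it could only be read from a genome of the same release.

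The 2L window was sparsely marked. Over its 20.6 Mb, clusters covered 465.7 kb in replicate 1 and 524.1 kb in replicate 2, which is 2.26% and 2.54% of the window, or 2.40% ± 0.200 (SD, n = 2). The combined list covered 949.2 kb, or 4.60%. The window held 5.89% of the clusters of replicate 1 but only 2.07% of that list's covered bases, and for replicate 2 the shares were 6.33% and 2.14%. The islands were thus narrower, on average, than the clusters of the whole lists. Per Mb, replicate 1 had 9.31 of them, replicate 2 had 10.1 and the combined list had 19.3.

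Most islands were short. Replicate 1 had a median width of 1956 bp and replicate 2 one of 2029 bp, and the combined list was narrower at 1875 bp. The middle 50 percent of widths ran from 1640 to 2467 bp in replicate 1 and from 1612 to 2580 bp in replicate 2. Widths above 5000 bp were found in 8 clusters of replicate 1, 15 of replicate 2 and 28 of the combined list. Only 2, 3 and 3 clusters of these lists exceeded 10 kb. At the other end, the narrowest clusters of the replicates measured 1311 and 1306 bp, and the narrowest combined one 1001 bp.

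Each cluster carries a score given by the authors, whose scale is not stated. It is used here to describe, rank and filter clusters, and at the end score differences are compared with whole-number ratios. The median score was 0.636 in replicate 1 and 0.613 in replicate 2. The middle 80 percent of scores ran from 0.424 to 1.19 in replicate 1 and from 0.432 to 1.26 in replicate 2. A score of 1 or more was reached by 27 clusters of replicate 1 and 28 of replicate 2, and a score of 2 or more by 7 and 8. In the combined list 38 of 397 clusters reached 1 and 15 reached 2. Wider islands tended to score higher: the Spearman correlation of width and score was 0.614 over the 192 of replicate 1, 0.730 over the 208 of replicate 2 and 0.458 over the 397 combined ones. These correlations are across clusters of 1 list, which share a library and an input, and are descriptions.

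Clusters of the replicates were then matched by position. Of the 192 islands of replicate 1, 150 (78.1%, exact binomial 95% interval 71.6 to 83.8) shared 1 bp or more with replicate 2. Across all sequences that share was 90.5%, and on 3L, 3R and X between their ends it was 82.9%. Of the 208 islands of replicate 2, 145 (69.7%, interval 63.0 to 75.9) overlapped replicate 1, against 78.5% across all sequences and 69.0% on these 3 arms. The pooled values of these 3 arms lie inside both 2L intervals. Taken singly, the share for replicate 1 was 79.4% on 3L, 72.4% on 3R and 87.9% on X, which is above the 2L interval. For replicate 2 it was 71.8%, 63.2% and 69.9% in the same order. Bases covered in both replicates came to 367.2 kb of 622.6 kb covered in either, a Jaccard index of 0.590. The intervals cover counting error only, and clusters of 1 library are not independent.

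Islands that overlapped had closely matching bounds. Over the 150 pairs the median distance was 144 bp between starts and 122.5 bp between ends, and in 105 pairs both bounds lay within 500 bp. In 110 pairs the cluster was wider in replicate 2, with median widths of 2094 bp and 2251 bp. Pairs were formed from the replicate 1 side, so a replicate 2 cluster can enter more than 1 pair, which weights wide ones. Counted once each, the replicate 2 clusters with a partner had a median width of 2194 bp. Breaks were rare: 3 clusters of replicate 1 overlapped 2 or more clusters of replicate 2, and 8 of replicate 2 overlapped 2 or more of replicate 1.

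Scores of paired islands followed each other, with a Spearman correlation of 0.852 and a Pearson correlation of 0.936 across 150 pairs. Both libraries are from the same stage and strain, and no p-value was computed for this description. The median difference, replicate 2 minus replicate 1, was 0.0328, and the middle 80 percent of differences ran from -0.115 to 0.216. Replicate 1 scored higher in 59 pairs, and 4 pairs differed by more than 0.5.

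**Figure D1:**
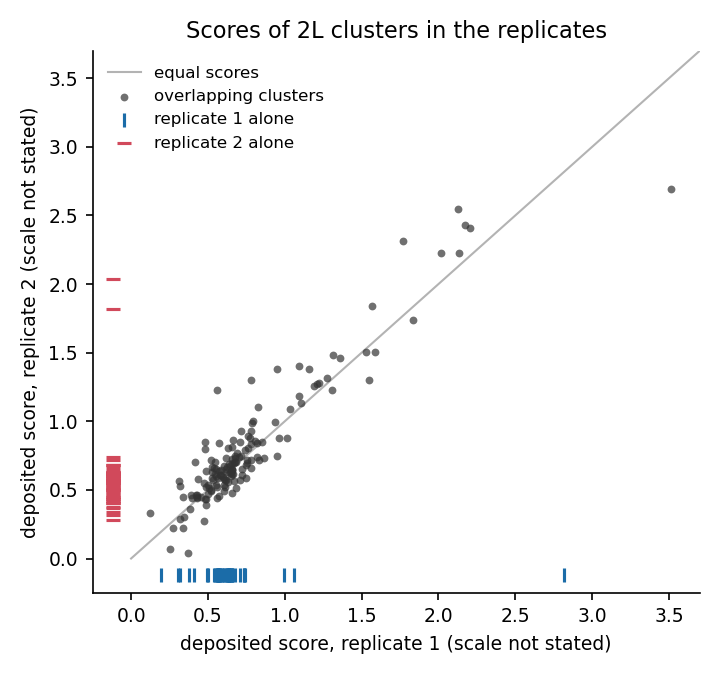
Deposited scores of overlapping 2L clusters in replicate 1 (horizontal) and replicate 2 (vertical), with clusters found in 1 replicate alone as ticks beside the axis of their own replicate. The 150 pairs lie along the line of equal scores, and most of the clusters found alone score below 0.75.

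Width separated islands seen in both replicates from islands seen in 1. In the narrowest quartile of replicate 1, from 1311 to 1638 bp, 25 of 48 clusters (52.1%, interval 37.2 to 66.7) overlapped replicate 2. The next quartile reached 68.8% (33 of 48). The upper quartiles, from 1964 bp, each reached 95.8% (46 of 48, interval 85.7 to 99.5). Replicate 2 showed the same order, with 34.6% (18 of 52), 59.6% (31 of 52), 88.5% (46 of 52) and 96.2% (50 of 52). Every cluster wider than 5000 bp had a partner, 8 of 8 in replicate 1 and 15 of 15 in replicate 2.

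**Figure D2:**
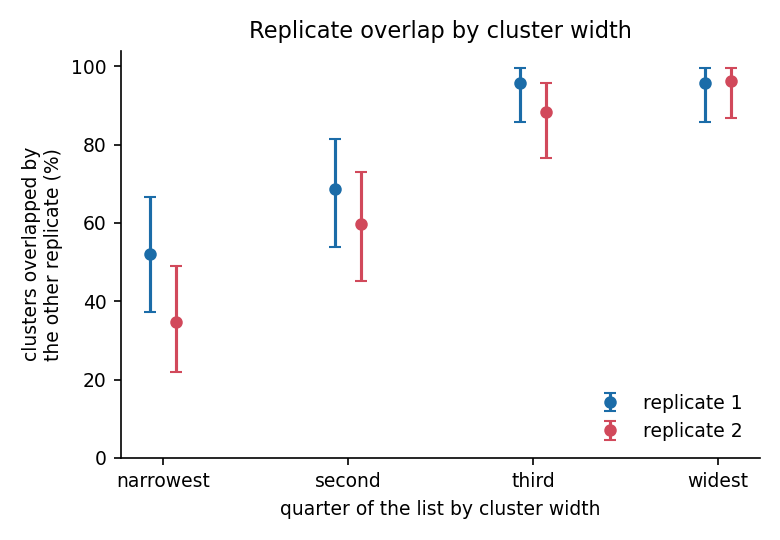
Percent of 2L clusters overlapped by the other replicate in each quartile of the list by width, with exact binomial 95% intervals (48 clusters a quartile in replicate 1, 52 in replicate 2). Overlap goes from 52.1% and 34.6% in the narrowest quartile to 95.8% and 96.2% in the widest.

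The score separated them less evenly. In replicate 1 the lowest quartile by score overlapped at 83.3% (40 of 48, interval 69.8 to 92.5). The second quartile was at 62.5% (30 of 48, interval 47.4 to 76.0) and the third at 72.9% (35 of 48, interval 58.2 to 84.7). The intervals of these lower quartiles overlap and cover counting error only, and the order of the quartiles was not tested. The highest quartile reached 93.8% (45 of 48). In replicate 2 the quartiles gave 55.8%, 53.8%, 73.1% and 96.2% of 52 clusters each, from lowest to highest. Of clusters with a score of 1 or more, 25 of 27 in replicate 1 and 26 of 28 in replicate 2 had a partner.

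Islands found in 1 replicate alone numbered 42 in replicate 1 and 63 in replicate 2. Their median width was 1556 bp and 1584 bp, against 2094 bp and 2194 bp for islands with a partner. Of these, 20 of 42 and 33 of 63 were within 10 kb of a cluster of the other replicate. In their own lists, 44.8% and 46.6% of all clusters had a neighbour within 10 kb. Nearness is therefore not read as a trait of lone islands. The combined list overlapped 40 of the 42 lone islands and all 63 by 1 bp or more. Among all clusters it overlapped 190 of 192 in replicate 1 and 208 of 208 in replicate 2.

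A few lone islands scored high. The cluster of replicate 1 from 4537208 to 4538543 (1336 bp) scored 2.81 and had no covered base in replicate 2, while the combined list gave it 2.34. Replicate 2 alone held the cluster from 11614183 to 11615557 (1375 bp), with a score of 2.03, and that from 19737342 to 19739623 (2282 bp), with 1.82. In the combined list these 2 scored 1.61 and 1.32. The next lone islands scored 1.06 (from 15826707 to 15828649) and 0.992 (from 17112420 to 17114233) in replicate 1, and at most 0.737 in replicate 2.

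Combined clusters over both replicates were ranked by the lower of the 2 replicate scores, each taken from the replicate cluster that shares the most bases. A strong, narrower replicate cluster inside a wide combined one is therefore not ranked, and the pair at 5175709 to 5178655 (1.77 and 2.31) is such a case. Of the 10 highest by this rank, the first was 2L:16141888-16144442 in the combined list (score 3.24). It was the top-scoring island of both replicate lists, with 3.51 over 1910 bp in replicate 1 and 2.69 over 2001 bp in replicate 2. The second was 2L:6991738-6996872, with 2.20 in replicate 1 and 2.41 in replicate 2, while the combined score was 2.34. Close to it came 2L:9975453-9979740, with 2.17, 2.43 and 2.34 in the same order. Between replicates these islands differed by at most 0.826, for the top one, and by 0.205 and 0.263 for the others.

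Another 3 islands scored above 2 in each replicate. The island 2L:3251584-3259396 was 7813 bp wide in the combined list, 7688 bp in replicate 1 and 7640 bp in replicate 2, with scores of 2.13 in replicate 1 and 2.22 in replicate 2. For 2L:12558623-12564978 the scores were 2.13 and 2.55, and the widths 4091 bp and 5353 bp. For 2L:16513680-16518164 they were 2.02 and 2.23, over 4064 bp and 4091 bp. Next among the ranked clusters, 2L:10403580-10408951 scored 1.83 and 1.74, and 2L:11540598-11548392 scored 1.57 and 1.84. The last of the 10 were 2L:625627-628633 (1.53 and 1.51) and 2L:10234888-10240023 (1.58 and 1.505).

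Several of these strong islands had nearly the same width. In replicate 1, 6 clusters measured from 4000 to below 4250 bp, and 5 of them scored 1.8 or more (median of the 6, 2.07), whereas 8 of all 192 clusters reached 1.8. These 5 measured 4064, 4091, 4092, 4097 and 4120 bp. In replicate 2, 3 of 4 clusters of that width class reached 1.8, with widths of 4091, 4159 and 4212 bp, beside 10 of all 208 clusters. The width class was chosen after the widths had been seen, and in the combined list neither of its 2 clusters reached 1.8.

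The widest islands were not the highest in score. The widest combined cluster, 2L:357868-374256, spanned 16.4 kb with a score of 1.00, and 74.3% of it was covered in replicate 1 and 88.7% in replicate 2. Inside it lay the widest cluster of replicate 2, 12785 bp with a score of 1.23, and a cluster of 10675 bp in replicate 1 with 1.30. The second, 2L:5159389-5174739, spanned 15.4 kb with a score of 1.09 with coverage of 90.5% and 90.7%. It held the widest cluster of replicate 1 (12365 bp, score 1.19) and one of 12608 bp in replicate 2 (1.26).

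The fifth-widest combined cluster, 2L:5174988-5183868 (8881 bp, score 0.961), followed the second after 248 bp. Together they formed the longest run of replicate 1, 4 clusters from 5160058 to 5183252 of which 85.6% was covered in that replicate and 85.9% in replicate 2. Inside it, a cluster from 5176113 to 5178655 scored 2.31 in replicate 2, and one from 5175709 to 5177709 scored 1.77 in replicate 1. Next in width to the first 2 came 2L:20685280-20695712 (10.4 kb, score 0.710) and 2L:1639703-1648781 (9079 bp, 0.716).

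Of the 10 widest combined clusters, 9 overlapped both replicates, with coverage from 67.2% to 98.4% in replicate 1 and from 68.8% to 98.1% in replicate 2. The exception was 2L:3607940-3616365 (8426 bp, score 0.496), which was covered at 61.3% by 3 clusters of replicate 2 and at 0% in replicate 1. In all, the 10 widest clusters held 15.9% of the covered bases of replicate 1, 16.5% of those of replicate 2 and 10.6% of those of the combined list.

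The combined list is deposited for the replicate set, and how it was made is not stated, so its clusters are not read as a further replicate. Both replicates were overlapped by 140 of its 397 clusters (35.3%), replicate 1 alone by 35, replicate 2 alone by 56 and neither by 166 (41.8%). Across all sequences 48.7% of combined clusters overlapped both, and on 3L, 3R and X between their ends 37.9% did, close to the 2L share. The share over neither was taken on 2L alone, so the 41.8% is not read as particular to 2L. The 140 made up 53.6% of the covered bases of the combined list, and the 166 made up 25.4%. Their median widths were 2709 bp and 1378 bp, and their median scores 0.566 and 0.420.

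Narrow combined clusters rarely had a counterpart. From 1000 to below 1500 bp, 0 of 113 overlapped both replicates and 102 (90.3%) overlapped neither. From 1500 to below 2000 bp, 19 of 117 (16.2%) overlapped both. The share was 65.6% (59 of 90) from 2000 to below 3000 bp and 73.5% (36 of 49) from 3000 to below 5000 bp. At 5000 bp or more it was 92.9% (26 of 28), and none overlapped neither. The replicate lists hold no cluster on the window narrower than 1306 bp, and 68 of the 166 without a counterpart were narrower than that. The part of a width limit in the rest was not tested.

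By score the share over both replicates was highest in the middle. It was 16.3% (21 of 129) below 0.4, 19.2% (28 of 146) from 0.4 to below 0.5, 82.1% (69 of 84) from 0.5 to below 1 and 69.6% (16 of 23) from 1 to below 2. At 2 or more it was 40.0% (6 of 15), and 8 of those 15 overlapped neither replicate. The 8 were the 5 highest-scoring clusters of the window and 3 others. The top was 2L:10139962-10143105 (3144 bp, score 4.18), followed by 2L:12783772-12785739 (1968 bp, 4.12) and 2L:4066844-4068134 (1291 bp, 3.66). Next came 2L:20309145-20310145 (1001 bp) and 2L:20976762-20977776 (1015 bp), which share 1 score, 3.47. Further down were 2L:10593146-10595310 (2165 bp, 3.04), 2L:13241972-13244129 (2158 bp, 2.66) and 2L:15683864-15685856 (1993 bp, 2.36). None of the 8 had a covered base in either replicate, and all were at most 3144 bp wide.

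**Figure D3:**
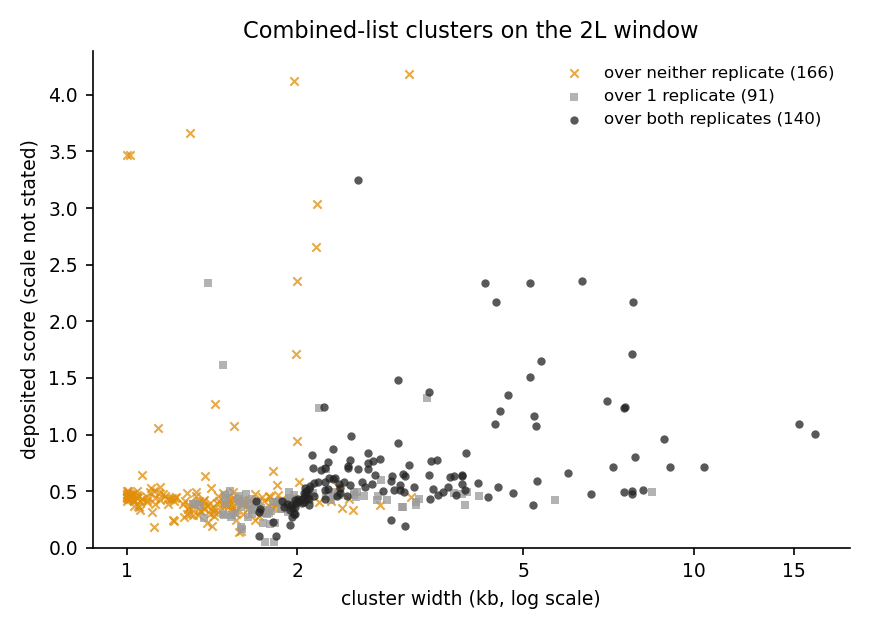
Width in kb (horizontal, log scale) and deposited score (vertical) of the 397 combined-list clusters on the 2L window, marked by whether they overlap both replicates (140), 1 (91) or neither (166). At 5000 bp or more, 26 of 28 clusters are over both, while the narrowest cluster over both measures 1687 bp. The 5 highest scores belong to clusters over neither, at most 3144 bp wide.

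Where a combined cluster overlapped both replicates, its score was never above both. It was below both in 96 of 140 and between them in 44, with medians of 0.566 for the combined clusters and 0.655 and 0.665 for their partners. It was wider than its best partner in each replicate in 128 of 140, with median widths of 2709, 2144 and 2206 bp. In 15 it spanned 2 or more clusters of a replicate.

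Islands were unevenly spread along the arm. The window was divided into 21 bins from its telomere-side bound, each of 1 Mb except the last, less the 38C locus. Coverage ranged from 0.201% to 4.71% over the bins in replicate 1, with a median of 2.19%, and from 0.337% to 5.99% in replicate 2, with a median of 2.61%. The replicates ranked the bins almost alike, with a Spearman correlation of 0.964 and a Pearson correlation of 0.949 over 21 bins, which are stretches of 1 arm in the same 2 libraries. Replicate 2 was higher in 15 bins.

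The most covered bin ran from 10200001 to 11200000, with 16 clusters and 4.71% in replicate 1, and 20 clusters and 5.99% in replicate 2. Second was the bin from 3200001 to 4200000, at 4.10% and 4.40%, followed by that from 16200001 to 17200000, at 4.24% and 3.93%. These 3 bins held 51 of the 192 clusters of replicate 1 and 53 of the 208 of replicate 2, or 28.0% and 27.3% of the covered bases. Their order beyond the first does not hold against the replicate spread, since the means were 4.25% ± 0.209 and 4.09% ± 0.216. In the combined list the bin from 3200001 to 4200000 was the highest, at 8.35%, and that from 10200001 to 11200000 was at 7.11%, behind those from 11200001 (7.58%) and 5200001 (7.24%).

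The emptiest bins lay side by side. From 14200001 to 15200000 there was 1 cluster in replicate 1 (0.201%) and there were 2 in replicate 2 (0.337%). From 13200001 to 14200000 there were 2 in each, covering 0.363% and 0.388%. The third lowest by the mean, from 17200001 to 18200000, had 4 clusters in each replicate and covered 0.769% and 0.720%. In replicate 2 the bin from 2200001 to 3200000 was lower than that, at 0.714%. The combined list added clusters in the 3 bins lowest by the mean but kept them lowest, at 1.39%, 1.21% and 1.29%. The longest stretches with no cluster in any list ran from 13525812 to 14022223 (496.4 kb), from 7649599 to 8142589 (493.0 kb) and from 14530288 to 14984719 (454.4 kb).

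**Figure D4:**
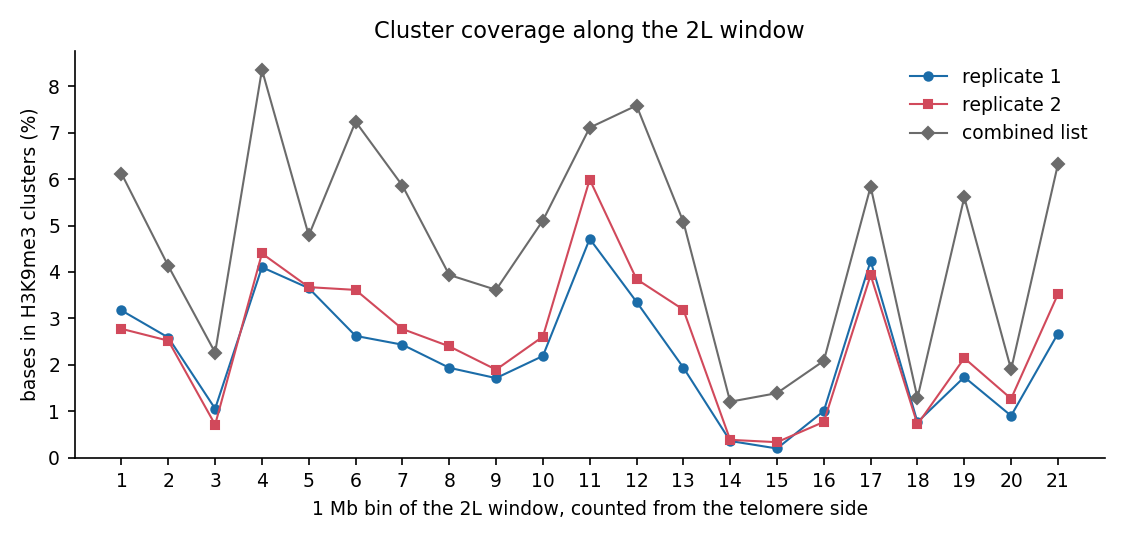
Percent of bases in H3K9me3 clusters (vertical) in each of the 21 bins of the 2L window, counted from the telomere side, for both replicates and the combined list. The replicates follow each other, with the highest values in bin 11 and the lowest in bins 14 and 15.

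Clusters lay on both sides of each bound, and in the replicate lists each bound fell in a gap between clusters. On the centromere side, the last cluster inside the window ended at 20821318 in replicate 1 (2727 bp, score 0.777) and at 20821384 in replicate 2 (3771 bp, 0.662). The first outside it began at 21146348 (6506 bp, 0.928) and at 21146608 (6475 bp, 0.969). In the combined list the nearest clusters were 2L:20976762-20977776 inside (1015 bp, 3.47) and 2L:21021967-21023887 outside (1921 bp, 3.57). On the telomere side, the first cluster inside began at 264756 in replicate 1 (1758 bp, 0.636) and at 357951 in replicate 2 (12785 bp, 1.23). The last outside it ended at 23245 (1735 bp, 0.482) and at 23930 (2884 bp, 0.759). The 38C locus took out 11 clusters of replicate 1, 6 of replicate 2 and 8 of the combined list. The combined list held only 3 depleted regions in all, of which 0 lay on 2L, and each replicate list held 0.

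Spacing was uneven, with close neighbours for fewer than 50 percent of islands in each replicate and long empty stretches. The median gap between neighbours was 41.2 kb in replicate 1 (41234.5 bp) and 35.0 kb in replicate 2 (35022.5 bp), while the shortest 25 percent of gaps reached only 7921.5 bp and 6775.5 bp. Gaps over 100 kb numbered 57 of 190 and 55 of 206. A neighbour within 10 kb was found for 86 of 192 clusters of replicate 1 (44.8%), 97 of 208 of replicate 2 (46.6%) and 254 of 397 of the combined list (64.0%). Clusters with and without such a neighbour had similar median scores, 0.640 and 0.636 in replicate 1 and 0.611 and 0.622 in replicate 2.

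**Figure D5:**
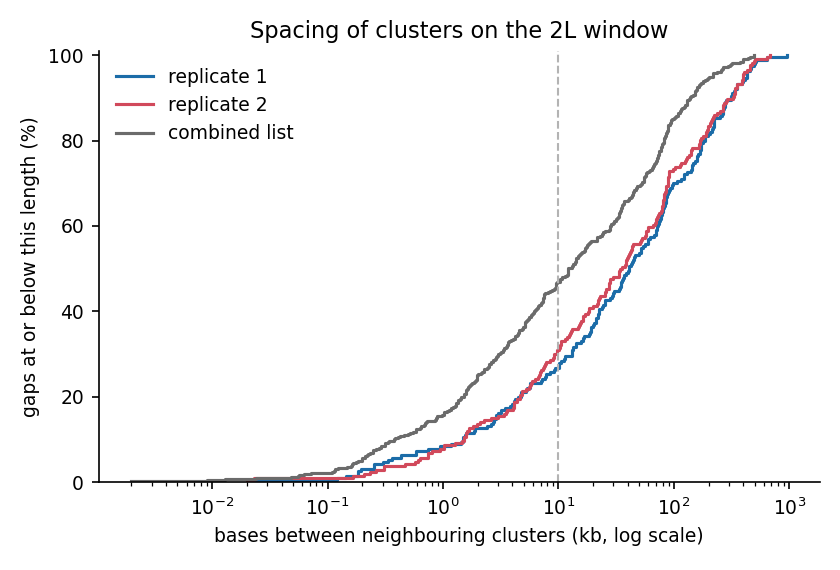
Cumulative percent of gaps between neighbouring 2L clusters by length in kb (log scale), for both replicates (190 and 206 gaps) and the combined list (395 gaps); the dashed line marks 10 kb. The replicate curves nearly coincide, and the combined list is shifted to shorter gaps, with a median of 12221 bp.

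Linked by gaps of at most 10 kb, the clusters of replicate 1 formed 35 runs and 106 single islands, and those of replicate 2 formed 33 runs and 111 single islands. The combined list formed 69 runs and 143 single islands. Its longest run, 2L:5390853-5465163, joined 17 clusters over 74.3 kb, with scores from 0.369 to 0.764. In it replicate 1 had 7 clusters and covered 18.1%, and replicate 2 had 9 and covered 28.2%, against 57.2% in the combined list. Of the 17, 3 overlapped both replicates and 7 neither.

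The second-longest run, 2L:3567860-3616365, held 10 combined clusters over 48.5 kb, of which replicate 1 covered 14.5% and replicate 2 covered 25.7%. A weaker run, 2L:491601-532653, held 5 combined clusters over 41.1 kb with scores up to 0.398, none of which overlapped both replicates. Next to each other lay 2L:10292208-10331524 (7 clusters, 39.3 kb) and 2L:10349903-10388597 (5 clusters, 38.7 kb), in the most covered bin. The former had 24.96% of its length in clusters of replicate 1 and 40.02% in those of replicate 2, and the latter 30.6% and 34.8%. The 17 combined runs of 5 or more clusters held 120 of the 397 clusters. In replicates 1 and 2 only 2 and 3 runs were that large, with 11 and 19 clusters.

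The same values were taken on 3L, 3R and X, each without 200 kb at its telomere side and 2 Mb at its centromere side. Coverage was 2.40% ± 0.200 on 2L, 2.14% ± 0.259 on 3L, 1.68% ± 0.170 on 3R and 7.90% ± 1.41 on X (SD, n = 2). Counted within each replicate, 2L exceeded 3L by 0.301 and 0.217 percentage points and 3R by 0.699 and 0.741, while against X the differences, 2L minus X, were -4.65 and -6.36 points (mean -5.50 ± 1.21). An exact two-sided sign-flip permutation test over 2 replicates gave p = 0.5 for each of these comparisons and cannot go lower.

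Bases in strong islands followed the same order. Clusters with a score of 1 or more covered 0.593% of the 2L window in replicate 1 and 0.669% in replicate 2. On 3L they covered 0.337% and 0.469%, on 3R 0.273% and 0.339%, and on X 2.46% and 3.38%. Thus by these bases 2L lay above 3L and 3R and below X in each replicate (exact two-sided sign-flip permutation p = 0.5, the smallest that 2 replicates allow). As a share of clusters, such scores made up 14.1% and 13.5% on 2L, and 11.6% and 14.1% on 3L. On 3R they made up 11.4% and 12.3%, and on X 20.6% and 22.6%. By that share 3L lay above 2L in replicate 2, and in the combined list, at 11.2% against 9.57%. Median scores on 2L (0.636 and 0.613) were below those on 3L (0.661 and 0.641) and above those on 3R (0.614 and 0.597). X had the highest, 0.749 and 0.758. Neighbours within 10 kb were found for 40.2% and 39.0% of clusters on 3L, for 41.1% and 36.3% on 3R and for 59.1% and 64.5% on X, against 44.8% and 46.6% on 2L. In the combined list 3R, at 67.0%, lay above 2L, at 64.0%.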

How the data were processed

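The authors deposited lists of clusters in GFF3 files, with a score per cluster, 1 list per ChIP replicate and 1 for the replicate set. Coordinates follow FlyBase release 5, per the file headers. Bowtie 0.12.7 appears in the submitters' processing notes, with no step named. The sources used here do not give the caller, its threshold, the scale of the score, the handling of repeats or the pooling of replicates. Read totals are missing too, so the depth behind a cluster is unknown.

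Groups came from the sample titles. Clusters were assigned to the window by midpoint, and covered percent is their merged bases over the 20.6 Mb left after the 38C locus. Overlap needed at least 1 bp, and a partner was the cluster that shared the most bases. Gaps were not counted across 38C. Shares of clusters have exact Clopper-Pearson intervals. Simulated intervals with known overlaps were used to test the code. Python 3.11.15, numpy 2.4.6, pandas 2.3.3, scipy 1.17.1 and matplotlib 3.10.9 were used.

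The members, the rules and the comparisons were chosen with earlier results of these data known. Named clusters were, in the combined list, the 10 widest, the 10 highest by score and the 10 highest by the lower replicate score. Also named were the longest runs, the extreme bins, the longest empty stretches, the clusters at the bounds, and the top-scoring lone clusters of each replicate, of which the highest few are printed. Gene positions were at hand on release 6 only, so no gene was placed. Alternatives covered score, window, overlap and gap limits, the list used, and each replicate left out.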

Additional observations from a re-analysis of the deposited data

How the results depend on the processing

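Of 73 alternatives over 11 results, 12 left out 1 of 2 replicates, which cannot move a mean by 1 SD; of the other 61, 41 changed a value by more than the replicate SD or the interval and 20 did not. For the overlap index and the score correlation, which have neither, any change was counted. Keeping scores at or above each list's median gave coverage of 1.54%, 4.85 clusters per Mb, a median width of 2413 bp, a median score of 0.755, neighbours for 30.4%, a median gap of 84506 bp, a Jaccard index of 0.589 and a Spearman correlation of 0.883. Scores of 1 or more gave 0.631%, 1.33 per Mb, 4191 bp (4190.5), 1.416, 16.4% and 326176 bp. With both replicate lists cut at that score, overlap was 88.9% for replicate 1 and 85.7% for replicate 2 (27 and 28 clusters). The index was then 0.776 and the correlation 0.897 over 24 pairs. Of the 38 combined clusters at that score, 22 (57.9%) overlapped both replicates, against 140 of 397 (35.3%) as reported. Keeping only combined clusters as wide as the narrowest replicate cluster gave 140 of 329 (42.6%). This result was compared by count, so the width limit was among the 20 without a change although the share rose. The combined list gave 4.60%, 19.3 per Mb, 1875 bp, 0.443, 64.0% and 12221 bp. Ending the window 1 Mb from the arm's end gave 2.90%, 11.0 per Mb, 50.2%, 29868 bp, an index of 0.594 and a correlation of 0.838. Ending it 3 Mb away gave 44.0%, 0.585 and 0.843. Keeping 38C gave coverage of 2.93% and neighbours for 48.0%. Gap limits of 5 and 20 kb gave 34.8% and 57.3%. Overlap of 50 percent of both clusters gave 70.8% for replicate 1, an index of 0.547 and a correlation of 0.866. By construction, score limits lower coverage and density and raise the median score. A shorter or longer gap limit can likewise only lower or raise the share with neighbours, and a stricter overlap rule can only lower overlap. For the rest the cause was not tested. No paired analysis was possible because the inputs have no list analysed here, so that ChIP and input could not be paired; arms were compared within each replicate. Depth is unknown, so its limit on weak islands could not be set.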

Other observations

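Scores of 2 or more in the combined list were set against 3.47, the score of the tied clusters 2L:20309145-20310145 and 2L:20976762-20977776. For each, 2 raised to the difference in score was compared with ratios of whole numbers up to 100, with a relative tolerance of 1e-09; the reference and the limit were chosen after the scores had been seen. All 8 clusters over neither replicate matched, the tied pair by construction. The other ratios were 23 to 14 for 2L:10139962-10143105, 11 to 7 for 2L:12783772-12785739, 8 to 7 for 2L:4066844-4068134, 26 to 35 for 2L:10593146-10595310, 4 to 7 for 2L:13241972-13244129 and 13 to 28 for 2L:15683864-15685856. Of the 6 over both replicates, 2 matched: 2L:16141888-16144442, at 6 to 7, and 2L:16513680-16518164, at 20 to 49. The 1 over a single replicate, 2L:4537219-4538610, matched at 16 to 35. Over all 397 combined clusters 36 (9.07%) matched, made up of 4 of 140 over both replicates, 6 of 91 over 1 and 26 of 166 over neither. Such ratios are what log2 values of small whole-number ratios give, but the counts behind the scores are not part of the lists, and what this spacing has to do with the missing overlap was not tested.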
